A study of Mus musculus with 27 samples.

Results

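The genes described here encode 9 proteins of the adult heart's contractile apparatus: the troponin subunits Tnnt2, Tnni3 and Tnnc1, the tropomyosin Tpm1, the cardiac myosin binding protein Mybpc3, the ventricular myosin light chains Myl2 and Myl3, the alpha-actinin Actn2 and titin, Ttn. They were taken as a named list, and all 9 of 9 were among the 8987 genes of the messenger RNA table. A sarcomere shortens when myosin heads of the thick filament pull on actin of the thin filament. Calcium binds troponin C, troponin I then releases its block, and tropomyosin moves on the actin to which troponin T anchors the complex. Alpha-actinin ties thin filaments together at the Z-disc, titin spans from Z-disc to M-band as a spring and ruler, and myosin light chains and myosin binding protein C tune the heads. These genes are among the most abundant messages of ventricular muscle, and a change of isoform within their families is a classic mark of heart growth under load.

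RNA came from the left ventricle of adult FVB mice, 1 library per mouse, 7 days after a sham operation or after TAC, transverse aortic constriction, a surgical narrowing that raises the pressure against which the ventricle ejects blood. The caPI3Kalpha mice carry a constitutively active form of the alpha isoform of phosphoinositide 3-kinase, a kinase of heart growth signalling; which promoter drives it is not stated in the labels. There were 2 libraries of caPI3Kalpha TAC, 2 of caPI3Kalpha sham, 3 of WT TAC and 4 of WT sham, all of the same strain and day and with no other allele or agent named. Values are RPKM, mapped reads scaled to library size and to transcript length. Levels of different genes can be compared only roughly, since transcript lengths and the handling of isoforms were not checked here. Means carry the standard deviation (SD). Libraries are called by group and mouse number.

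The leading principal component of the log2 values (52.0% of their variance) split the 11 libraries into 2 sets, a division that the labels do not describe. All 4 caPI3Kalpha libraries were in the first set together with WT TAC 1 and WT sham 6. The second set was WT TAC 17 and 19 with WT sham 7, 13 and 15. Genotype is therefore partly tied to the set, and the main results are also given with the set as a term in the fit or within a set. Of 16 cardiomyocyte markers outside the sarcomere 16 were measured, and none was at 0 in any library.

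Ttn, Mybpc3 and Tnnt2 are shown with the 250 bases before their start sites, because Ttn and Mybpc3 are the members that passed in the fit of 4 groups below and Tnnt2 is the member whose WT TAC libraries all lay under the WT sham libraries. Sequences are from RefSeq on GRCm38.p6, written 5′ to 3′ on the gene's strand, with motif matches in capitals. The Ttn window is chr2:76982548-76982797 on the minus strand and its capitals mark a MEF2 site that begins 166 bases before the start. The Mybpc3 window is chr2:91117894-91118143 on the plus strand, where capitals mark a MEF2 site beginning 90 bases and a GATA motif beginning 60 bases before the start. The Tnnt2 window is the first of 2 listed for that gene, chr1:135836084-135836333 on the plus strand. Its capitals mark an MCAT motif that begins 27 bases before the start and 2 GATA motifs on the opposite strand.
Ttn: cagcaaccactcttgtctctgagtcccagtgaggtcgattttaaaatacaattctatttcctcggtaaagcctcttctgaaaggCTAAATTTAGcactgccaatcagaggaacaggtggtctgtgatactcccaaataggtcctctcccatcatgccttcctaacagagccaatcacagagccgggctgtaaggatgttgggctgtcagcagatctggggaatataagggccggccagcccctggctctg
Mybpc3: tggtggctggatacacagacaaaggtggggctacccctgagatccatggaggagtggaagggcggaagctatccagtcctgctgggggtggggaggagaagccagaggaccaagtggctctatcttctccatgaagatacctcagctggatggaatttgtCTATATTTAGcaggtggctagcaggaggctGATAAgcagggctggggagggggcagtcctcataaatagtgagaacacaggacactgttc
Tnnt2: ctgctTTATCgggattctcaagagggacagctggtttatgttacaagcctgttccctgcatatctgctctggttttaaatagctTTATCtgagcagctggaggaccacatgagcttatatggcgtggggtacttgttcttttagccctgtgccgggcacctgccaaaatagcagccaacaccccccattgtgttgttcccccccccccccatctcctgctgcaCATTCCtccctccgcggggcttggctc

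Promoter windows were found for all 9 members, 11 in all since Tnnt2 and Myl2 have 2 each. Both strands were searched for the TATA box (letters TATAAA), the MCAT element (letters CATTCC), the GATA motif (letters GATAA), and the CArG box and MEF2 site by name; none of the matches in the 3 printed windows overlapped another. MCAT was in 4 of 11 member windows and in 12.6% of the 32851 windows of all genes, and GATA was in 4 of 11 and 22.6%. The MEF2 site was in 2 of 11 and 2.92%, those of Ttn and Mybpc3. The CArG box was in 1 of 11 (Myl3) and 1.47%, and the TATA box in 1 of 11 (Myl2) and 12.4%. No match was found for Tnni3 or Actn2, which says only that these letters are not in those windows.

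The members were among the most abundant genes of the table. By mean RPKM over the 11 libraries Myl2 ranked 3, Tpm1 5, Tnnt2 7, Myl3 9, Tnnc1 12 and Tnni3 13 of the 8987 genes, with Mybpc3 at 34, Actn2 at 48 and Ttn at 423. In WT sham hearts the ranges of neighbours in this order overlapped for Tnnt2 and Myl3, Myl3 and Tnnc1, Tnnc1 and Tnni3, and Mybpc3 and Actn2. They were apart for Myl2 and Tpm1, Tpm1 and Tnnt2, Tnni3 and Mybpc3, and Actn2 and Ttn. Together the 9 genes took between 7.35% and 7.60% of the listed RPKM in caPI3Kalpha TAC hearts, 7.10% to 7.58% in caPI3Kalpha sham, 6.23% to 6.59% in WT TAC and 7.18% to 7.56% in WT sham. All 3 WT TAC hearts were thus below every other heart, and no test was made on this sum.

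The members varied to unequal degrees across the 11 libraries. The highest library was 1.19 times the lowest for Tpm1, 1.30 times for Tnnc1 and 1.40 times for Tnnt2. The same ratio was 1.43 for Actn2, 1.63 for Myl2, 1.72 for Myl3 and for Ttn, 1.96 for Mybpc3 and 2.19 for Tnni3. Part of that spread followed the library sets: the first set's mean was 1.44 times the second's for Myl3, 1.41 times for Tnni3 and for Mybpc3, and 0.779 times for Myl2, while it was 0.958 times for Tnnc1 and 1.06 times for Tpm1.

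**Figure D1:**
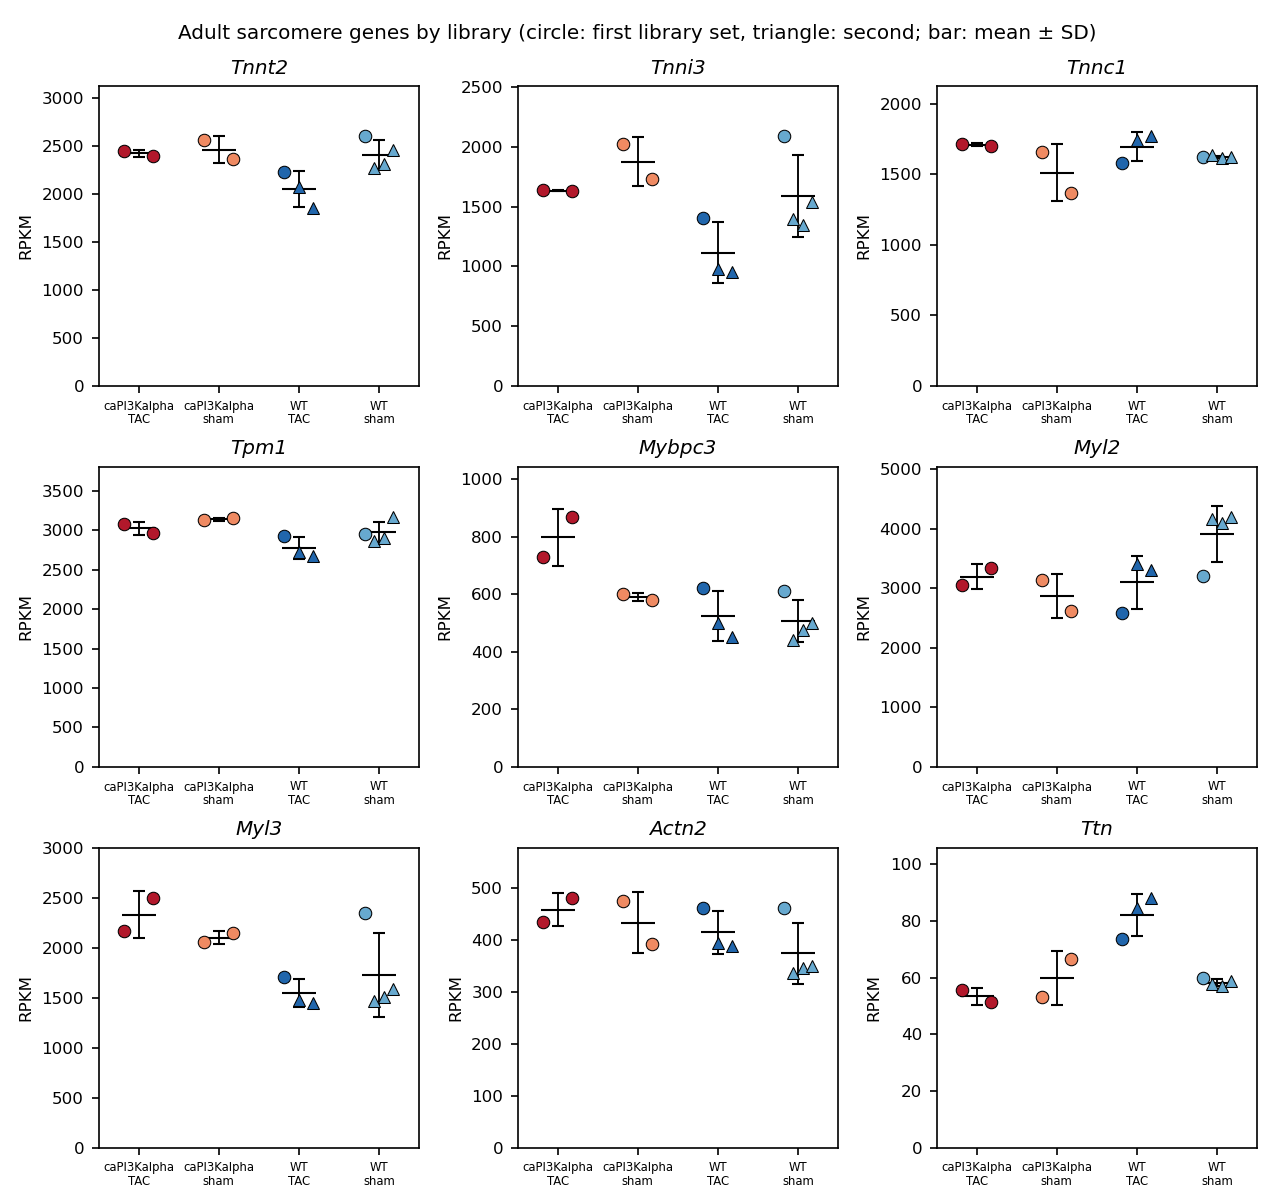
RPKM of each of the 9 sarcomere genes (y axis from 0) in every library, by group; points are libraries, circles of the first library set and triangles of the second, and bars are the mean ± SD. Ttn stood at 73.6 to 88.1 in WT TAC hearts and at 51.3 to 66.6 in all other hearts, and Tnnt2 was lower in every WT TAC heart than in any other.

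The first comparison asked how pressure load changes these genes in WT hearts. Ttn rose, and it alone of the 9 members passed the test, while Tnnt2, Tnni3 and Myl2 had lower means in WT TAC hearts that missed the threshold in the fit of 4 groups and passed with the library set as a term. In the fit of all 4 groups (limma on log2(RPKM + 0.5), p-values adjusted by Benjamini-Hochberg over all genes, threshold 0.05), 1 member rose and 0 fell, against 13.6% of all genes that rose and 2.85% that fell, 16.5% in either direction. The median change of the members was -0.10 on the log2 scale, against 0.17 for all genes. With each library centred on its own median, which takes out the shift of all genes, Tnnt2, Tnni3, Tpm1 and Myl2 fell and Ttn did not pass; 6.79% of all genes then fell and 6.24% rose.

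Titin, the giant spring of the sarcomere, had 73.6, 84.5 and 88.1 RPKM in WT TAC 1, 17 and 19, against 59.8, 57.7, 56.9 and 58.8 in WT sham 6, 7, 13 and 15. Every WT TAC heart was above every WT sham heart, as was the case for 18.9% of all genes. The means were 82.1 ± 7.55 RPKM in WT TAC (SD, n = 3) and 58.3 ± 1.27 in WT sham (SD, n = 4). The log2 change was 0.49 (SE 0.11, 95% interval 0.24 to 0.73, limma adjusted p = 0.0130), a rise of 1.40 times. Within the first set, of 1 heart against 1, the difference was 0.30, and within the second it was 0.57. Leaving out WT TAC 17 or WT TAC 19 gave changes of 0.46 and 0.43 with limma adjusted p of 0.0593 and 0.0540, so the call rested on both. After centring each library on its median it was 0.30 (limma adjusted p = 0.0947).

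Among the troponins, Tnnt2, which anchors the complex to tropomyosin, had 2228.5, 2076.8 and 1855.9 RPKM in WT TAC 1, 17 and 19, against 2606.0, 2268.2, 2314.7 and 2457.5 in WT sham 6, 7, 13 and 15. All WT TAC hearts lay below all WT sham hearts, as for 4.65% of all genes. The change was -0.23 (SE 0.08, limma adjusted p = 0.0811), which missed the threshold. With the library set as a term Tnnt2 fell by 0.25 (SE 0.06, limma adjusted p = 0.00546), and the difference was -0.23 within the first set and -0.26 within the second. With quantile normalization it was 0.04, of the opposite sign (limma adjusted p = 0.824). Quantile normalization sets a value by its rank within the library. For members near the top rank, such as Tnnt2, Tpm1, Myl2 and Myl3, it follows changes of place among few genes. Its sign alone does not settle their direction.

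Tnni3, the inhibitory subunit of the adult heart, had 1407.6, 979.2 and 953.5 RPKM in WT TAC 1, 17 and 19, against 2091.6, 1397.0, 1343.7 and 1539.5 in WT sham 6, 7, 13 and 15. The groups overlapped, since WT TAC 1 lay above WT sham 7 and 13. Within each set every WT TAC heart was below every WT sham heart. The change was -0.52 (SE 0.17, limma adjusted p = 0.0605) in the fit of 4 groups, and with the set term Tnni3 fell by 0.56 (SE 0.07, limma adjusted p = 9.88e-05). The differences within the sets were -0.57 and -0.56, nearly the same size in both.

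Tnnc1, the calcium-binding subunit, had 1580.3, 1741.2 and 1773.1 RPKM in WT TAC 1, 17 and 19, against 1620.5, 1637.3, 1617.7 and 1622.1 in WT sham 6, 7, 13 and 15. The 4 WT sham hearts were close together and lay inside the WT TAC range. Its change was 0.06 (SE 0.08, 95% interval -0.12 to 0.24, limma adjusted p = 0.646). Tpm1, the main tropomyosin of the heart, averaged 2774.9 ± 140 RPKM in WT TAC hearts (SD, n = 3) and 2973.3 ± 135 in WT sham hearts (SD, n = 4). The groups overlapped, with a change of -0.10 (SE 0.07, limma adjusted p = 0.344). After centring Tpm1 fell by 0.29 (limma adjusted p = 0.0181), and with quantile normalization it was 0.25, of the opposite sign.

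In the thick filament, Myl2, the regulatory light chain of the ventricle, had 2579.6, 3403.4 and 3305.2 RPKM in WT TAC 1, 17 and 19, against 3205.1, 4152.0, 4093.6 and 4193.6 in WT sham 6, 7, 13 and 15. WT sham 6, the single WT sham heart of the first set, lay below WT TAC 17 and 19, so the groups overlapped; within each set WT TAC was lower. The change was -0.34 (SE 0.13, limma adjusted p = 0.0927), and with the set term Myl2 fell by 0.31 (SE 0.06, limma adjusted p = 0.00301). Without WT sham 6, Myl2 fell by 0.43 (limma adjusted p = 0.0176), while with quantile normalization the change was -0.07 (limma adjusted p = 0.769).

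Myl3, the essential light chain of the ventricle, averaged 1546.0 ± 140 RPKM in WT TAC hearts (SD, n = 3) and 1731.0 ± 417 in WT sham hearts (SD, n = 4). The wide WT sham spread came from WT sham 6, at 2353.1 RPKM, against 1474.1, 1510.0 and 1586.7 in WT sham 7, 13 and 15. The change was -0.14 (SE 0.15, limma adjusted p = 0.573), and the sets differed in size, with -0.46 in the first and -0.06 in the second. Mybpc3, which binds the myosin heads, averaged 524 ± 88.3 RPKM in WT TAC (SD, n = 3) and 507 ± 72.3 in WT sham (SD, n = 4), with a change of 0.04 (95% interval -0.26 to 0.35, limma adjusted p = 0.864). At the Z-disc Actn2 averaged 415 ± 40.7 RPKM in WT TAC (SD, n = 3) and 375 ± 59.1 in WT sham (SD, n = 4). Its change was 0.15 (SE 0.13, limma adjusted p = 0.454); within the second set alone, where 31.6% of all genes passed, Actn2 rose by 0.18 (limma adjusted p = 0.0393), and within the first the difference was -0.003. Scaling turned the sign of all 3: Myl3 was at 0.05 with quantile normalization, and Mybpc3 and Actn2 were at -0.14 and -0.03 after centring.

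**Figure D2:**
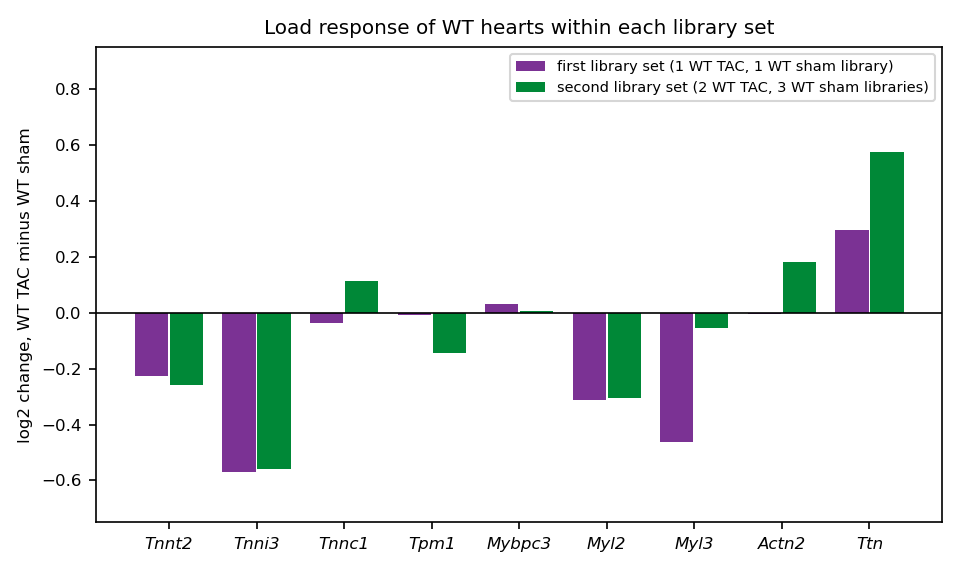
Difference of mean log2(RPKM + 0.5) between WT TAC and WT sham hearts (y axis) for each sarcomere gene, computed within the first library set (1 WT TAC and 1 WT sham library) and the second (2 and 3); bars start at 0 and carry no error. Tnni3 stood at -0.57 and -0.56 and Myl2 at -0.31 in both sets, while Actn2 and Tnnc1 differed in sign between sets.

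Of the 9 members 4 (Tnnt2, Tnni3, Tpm1 and Myl2) were lower in WT TAC than in every WT sham heart of the same set in both sets, and 1 (Ttn) was higher. Over all genes these shares were 10.9% and 40.5%. For Tpm1 the difference was only -0.009 within the first set, of 1 heart against 1, and -0.144 within the second. With the set as a term 1 member rose and 3 fell, against 33.1% and 9.01% of all genes (42.1% in either direction). The set was found in the data, so these values are an alternative to the fit of 4 groups and not a replacement for it.

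Fibroblast and macrophage markers differed in the same hearts. Summed RPKM of the 9 fibroblast markers, none at 0 in any library, was 438.9 to 474.2 in caPI3Kalpha TAC, 319.9 to 369.9 in caPI3Kalpha sham, 968.7 to 1117.1 in WT TAC and 339.6 to 433.9 in WT sham. Macrophage markers were measured for 11 of 12 listed symbols, of which Emr1 and Adgre1 name the same gene. Their sums, also with none at 0, were 122.3 to 145.5, 112.2 to 174.5, 267.0 to 333.5 and 118.6 to 141.5 in the same order. In WT TAC against WT sham 6 of 9 fibroblast and 10 of 11 macrophage markers rose and 0 fell, against 13.6% and 2.85% of all genes. Endothelial sums overlapped, at 625.0 to 704.3 RPKM in WT TAC and 562.5 to 741.7 in WT sham. Smooth muscle sums did too, at 55.0 to 106.2 and 56.5 to 73.5. Of these markers only Pecam1 and Tagln rose. The 16 cardiomyocyte markers outside the sarcomere summed to 14925.0 to 15281.7 RPKM in caPI3Kalpha TAC, 14564.4 to 15275.3 in caPI3Kalpha sham, 11917.0 to 12608.3 in WT TAC and 14675.0 to 15526.1 in WT sham. Of these 16, 1 fell and 0 rose in WT TAC against WT sham, with a median of -0.18. The part of cell makeup in the members' changes was not tested, and in whole ventricle fewer cardiomyocytes and less RNA per cardiomyocyte cannot be told apart.

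The second comparison asked how the loaded caPI3Kalpha ventricle differs from the loaded WT ventricle. Mybpc3 rose and Ttn fell in caPI3Kalpha TAC, each by 1.53 times, and the other 7 members did not pass. The members called were 1 higher and 1 lower, against 0.746% of all genes called higher and 5.78% called lower, 6.52% in either direction. The member median was 0.15, against -0.18 for all genes. In all, 5 members (Tnnt2, Tnni3, Tpm1, Mybpc3 and Myl3) were higher in both caPI3Kalpha TAC hearts than in every WT TAC heart, as were 11.5% of all genes, and Ttn was lower in both, as were 36.2%.

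Ttn had 55.5 and 51.3 RPKM in caPI3Kalpha TAC 11 and 211, against 73.6, 84.5 and 88.1 in WT TAC 1, 17 and 19. Both caPI3Kalpha TAC hearts also lay below WT sham, whose lowest heart was at 56.9, caPI3Kalpha TAC 11 only narrowly. The same held for caPI3Kalpha sham 5, at 53.3, but not for caPI3Kalpha sham 8, at 66.6. No fit compared caPI3Kalpha TAC with WT sham. The change against WT TAC was -0.61 (SE 0.13, 95% interval -0.90 to -0.32, limma adjusted p = 0.0286), and with the set term -0.56 (SE 0.12, limma adjusted p = 0.0179), where 9.0% of all genes passed. Leaving out 1 library at a time kept the direction, with changes of -0.69 to -0.56, and 6 of 11 such fits passed. After centring each library on its median it was -0.45 (limma adjusted p = 0.0810).

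Mybpc3 had 728.1 and 868.1 RPKM in caPI3Kalpha TAC 11 and 211, against 622.0, 499.8 and 450.4 in WT TAC 1, 17 and 19. These 2 were the highest of all 11 libraries. The change was 0.61 (SE 0.16, limma adjusted p = 0.0492), just under the threshold. WT TAC 1, the heart of the same set, was the nearest, and with the set term the change was 0.36 (SE 0.10, limma adjusted p = 0.0466). Of the 11 fits that leave out 1 library 2 passed, with limma adjusted p between 0.0109 and 0.285.

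Myl3 had 2169.4 and 2501.8 RPKM in caPI3Kalpha TAC 11 and 211, against 1707.4, 1476.2 and 1454.5 in WT TAC 1, 17 and 19. Tnni3 had 1635.5 and 1634.7 RPKM in the same caPI3Kalpha TAC hearts, against 1407.6, 979.2 and 953.5 in the WT TAC hearts. Neither pair of groups overlapped. The changes were 0.60 for Myl3 (SE 0.18, limma adjusted p = 0.0652) and 0.58 for Tnni3 (SE 0.20, limma adjusted p = 0.0901). With the set term they were smaller, at 0.30 (limma adjusted p = 0.108) and 0.21 (limma adjusted p = 0.163). After centring on library medians, where 2.99% of all genes passed, Myl3 rose by 0.76 (limma adjusted p = 0.0477), so that Mybpc3 and Myl3 were the 2 members called and Ttn was not.

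Tnnt2 averaged 2426.6 ± 38.2 RPKM in caPI3Kalpha TAC (SD, n = 2) and 2053.7 ± 187 in WT TAC (SD, n = 3), a change of 0.24 (95% interval 0.02 to 0.47, limma adjusted p = 0.122). Tpm1 averaged 3023.8 ± 85.9 RPKM in caPI3Kalpha TAC (SD, n = 2) and 2774.9 ± 140 in WT TAC (SD, n = 3), with a change of 0.12 (95% interval -0.05 to 0.30). The intervals for the other 3 members spanned 0: Tnnc1 from -0.20 to 0.23, Myl2 from -0.28 to 0.39 and Actn2 from -0.19 to 0.49. With the set term the value for Myl2 was 0.30 (limma adjusted p = 0.0568). Since all caPI3Kalpha libraries are in the first set, these genotype comparisons rest on WT TAC 1 for the within-set part.

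**Figure D3:**
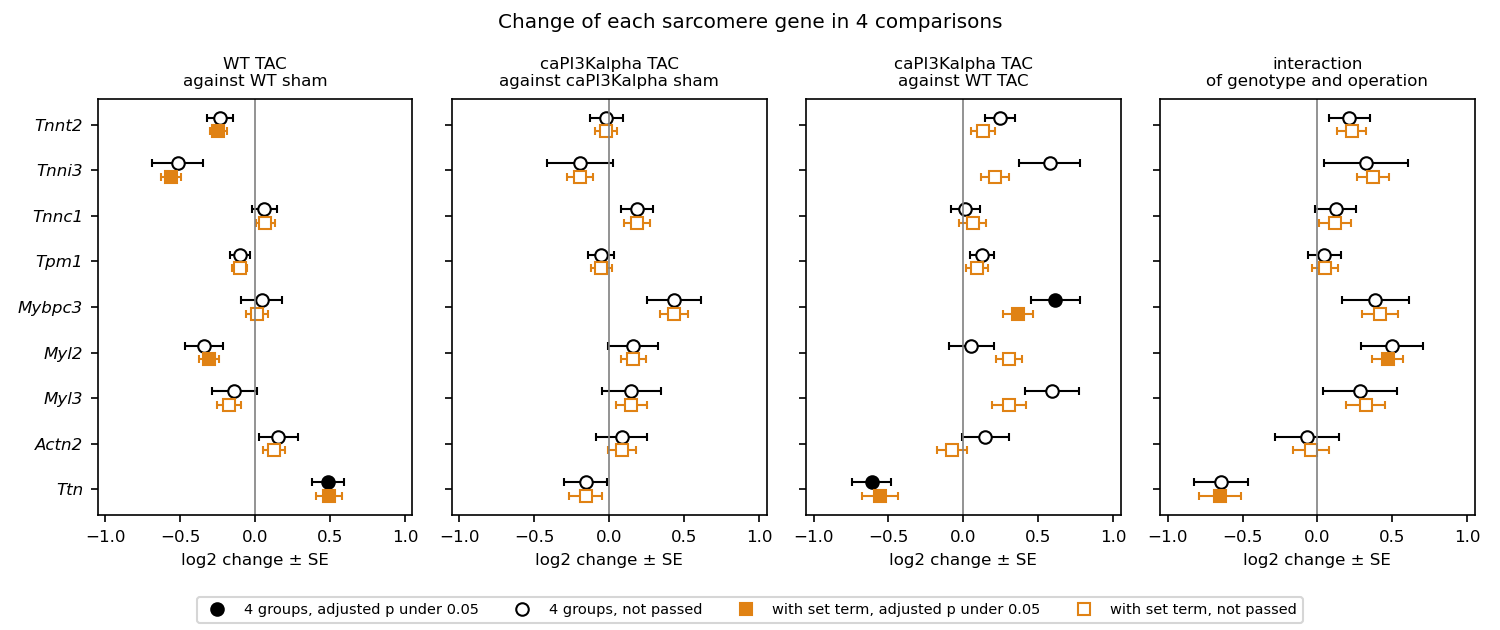
Log2 change ± SE (x axis) of the 9 sarcomere genes in 4 comparisons, from the fit of 4 groups (circles) and with a term for the library set (squares); filled marks have an adjusted p under 0.05. Ttn was filled in both fits at 0.49 for WT TAC against WT sham and at -0.61 and -0.56 for caPI3Kalpha TAC against WT TAC, and open only for the interaction in the fit of 4 groups and for caPI3Kalpha TAC against caPI3Kalpha sham.

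Within caPI3Kalpha mice, no member passed for TAC against sham, and 0.0% of all genes did. At an unadjusted p under 0.05, 454 of 8987 genes (5.05%) passed, Mybpc3 among them; with the set term 0 members and 1.03% of all genes passed after adjustment. Mybpc3 had 728.1 and 868.1 RPKM in caPI3Kalpha TAC 11 and 211, against 599.7 and 579.3 in caPI3Kalpha sham 5 and 8, with a change of 0.43 (SE 0.18, limma adjusted p = 0.855). Groups did not overlap for 5 members (Tnnc1, Mybpc3 and Myl3 higher, Tnni3 and Tpm1 lower), but of all genes 42.4% did not overlap either with 2 hearts a side. Ttn had 55.5 and 51.3 RPKM in caPI3Kalpha TAC, against 53.3 and 66.6 in caPI3Kalpha sham, with a change of -0.16 (95% interval -0.47 to 0.16). The 4 values overlap.

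The test of whether the response to load differed between genotypes, the interaction, called 0 of 9 members and 0.312% of all genes. The largest values were -0.64 for Ttn (SE 0.18, limma adjusted p = 0.210) and 0.50 for Myl2 (SE 0.21, limma adjusted p = 0.431). With the set term 2 members passed, Ttn at -0.65 (SE 0.14, limma adjusted p = 0.0244) and Myl2 at 0.47 (SE 0.10, limma adjusted p = 0.0275), against 6.75% of all genes. This comparison shares its WT and caPI3Kalpha TAC hearts with those above. For the mean response of both genotypes 0 members passed, against 7.53% of all genes, and with the set term Tnni3 fell by 0.38 and Mybpc3 rose by 0.22, against 28.0%.

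Between the sham groups no member passed, and 0.0111% of all genes did (1 gene); 1193 genes (13.3%) had an unadjusted p under 0.05, Myl2 among them. Myl2 had 3127.9 and 2608.5 RPKM in caPI3Kalpha sham 5 and 8, against 3205.1, 4152.0, 4093.6 and 4193.6 in WT sham 6, 7, 13 and 15. Both caPI3Kalpha sham hearts were below every WT sham heart, WT sham 6 narrowly. The change was -0.44 (SE 0.14, limma adjusted p = 0.326). Without WT sham 6, which leaves WT sham in the second set alone so that genotype and set cannot be told apart, Myl2 fell and Myl3 rose, and 20.3% of all genes passed in that fit. The other 8 members overlapped between the sham groups, whereas 19.6% of all genes did not.

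Ratios of 2 genes within a library do not depend on that library's scale. Of 10 ratios compared by an exact two-sided permutation test of 3 WT TAC against 4 WT sham hearts, 3 had groups that did not overlap, each with exact p = 0.0571, the smallest this design allows, and 0.19 after adjustment over the 10. Ttn/Myl2 averaged -5.22 in WT TAC and -6.05 in WT sham (log2), a difference of 0.82, with 0.61 within the first set and 0.88 within the second. Tpm2/Tpm1 differed by 0.73 and Actn4/Actn2 by 0.52, both higher in WT TAC hearts, so the minor tropomyosin and the nonmuscle actinin stood higher against their adult muscle partners. The caPI3Kalpha TAC minus caPI3Kalpha sham differences were -0.32, -0.38 and -0.09 for these 3 ratios, given as values with 2 hearts a side.

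**Figure D4:**
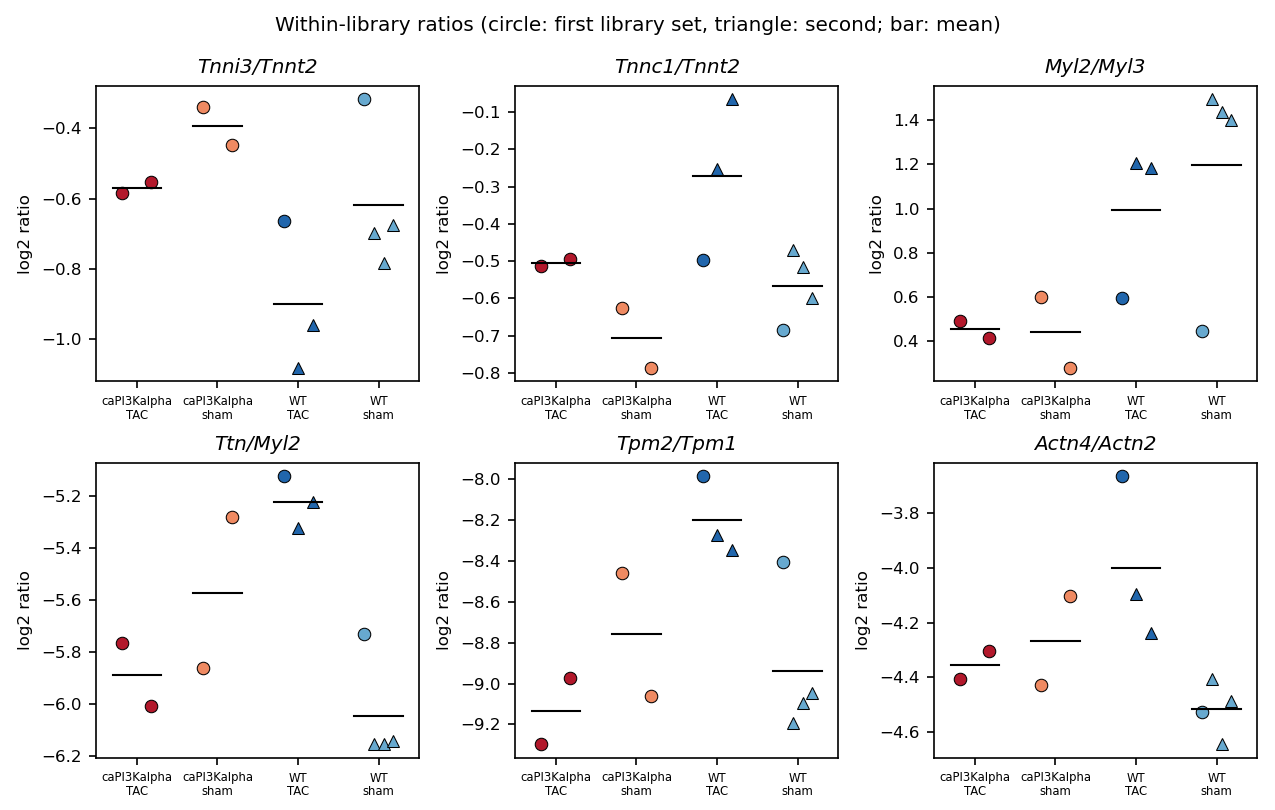
Log2 ratio of 2 genes within a library (y axis, not from 0) by group; circles are libraries of the first set, triangles of the second, and bars are means. Ttn/Myl2 was higher in the 3 WT TAC hearts than in any of the 4 WT sham hearts, and Myl2/Myl3 separated the library sets, at 0.45 in WT sham 6 against 1.40 to 1.49 in WT sham 7, 13 and 15.

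Among the troponin subunits, Tnni3/Tnnt2 differed by -0.28 between WT TAC and WT sham (exact permutation p = 0.229), with -0.35 and -0.30 within the sets and -0.18 between caPI3Kalpha TAC and caPI3Kalpha sham. Tnnc1/Tnnt2 differed by 0.30 between WT TAC and WT sham (exact permutation p = 0.114), with 0.19 and 0.37 within the sets and 0.20 in caPI3Kalpha. Neither passed. The atrial light chains were low in these ventricles: Myl7 averaged 10.6 RPKM in caPI3Kalpha TAC, 1.4 in caPI3Kalpha sham, 0.733 in WT TAC and 1.43 in WT sham, and Myl4 averaged 11.1, 1.95, 1.73 and 1.6 in the same order. Both caPI3Kalpha TAC means came mostly from 1 heart, with Myl7 at 20.8 and Myl4 at 20.4 RPKM, against 0.4 and 1.8 in the other. Myl7 and Sln, 2 of 4 atrial markers measured, were at 0 in at least 1 library.

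Across the 11 libraries the members did not move as 1 block. Pearson correlations of log2(RPKM + 0.5) were positive for 18 of 36 pairs and negative for 18; the libraries share groups and sets, so these are descriptions. Tnnt2 and Tnni3 were alike (0.94, and 0.93 after centring on the set). Ttn ran against 7 of the other 8, with -0.84 for Tnnt2 and -0.77 for Tnni3. For Ttn and Myl2 the value was -0.27, and -0.94 after centring on the set.

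By the same measure over 3328 genes with a mean of at least 10 RPKM, the genes most like Tnni3 were Atp5g1 (0.99), Fdx1 (0.99) and Rhot2 (0.99), and those most like Tnnt2 were Atp5j2 (0.96), Rhot2 (0.95) and Fdx1 (0.95). Atp5g1 and Atp5j2 are subunits of the mitochondrial ATP synthase. The closest to Ttn were Sfpq (0.98), Txnrd1 (0.98) and Luzp1 (0.95), and to Myl2 Phyh (0.94), Sh3bp5 (0.94) and Timm8b (0.93). Mybpc3 was nearest Adprhl1 (0.96), Cops7a (0.96) and Rhob (0.95), and Myl3 nearest Asb10 (0.98), Eef1a2 (0.97) and Macrod1 (0.96). Actn2 was nearest 3 ribosomal protein genes, Rpl19 (0.97), Rpl37a (0.96) and Rpl37 (0.95). Tnnc1 and Tpm1 had looser neighbours, with Myoz2 (0.83) and Poldip2 (0.92) first. None of these likeness values was centred on the set, and the part of the set in them was not tested. Among pairs of members, centring moved Actn2 and Myl3 from 0.76 to 0.0, and Tnnt2 and Tnni3 only from 0.94 to 0.93.

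The wider families gave a setting for the members in WT TAC against WT sham. Of 24 listed counterparts, the fetal, skeletal, atrial and nonmuscle relatives of the 9 genes, 13 were measured. Of these 7 rose and 0 fell, against 13.6% and 2.85% of all genes, with a median of 0.63 against 0.17 for all genes. The tropomyosins Tpm4 and Tpm3 rose by 1.07 and 0.97 (limma adjusted p = 0.000528 and 0.000476), and Tpm4 averaged 56.6 ± 1.73 RPKM in WT TAC (SD, n = 3) and 26.8 ± 3.24 in WT sham (SD, n = 4). Mybpc2, the fast skeletal myosin binding protein, rose by 1.76 (limma adjusted p = 0.000728), to 22.7 ± 1.38 RPKM in WT TAC (SD, n = 3), against 6.57 ± 2.27 in WT sham (SD, n = 4). The actinins Actn1 and Actn4 and the nonmuscle light chains Myl6 and Myl12b also rose, by 0.88, 0.67, 0.87 and 0.56. Tpm2, Myl1 and Myl9 did not pass, at 0.63, 0.51 and 0.37. Neither did Tnnt1 nor the atrial light chains Myl4 and Myl7, at -0.13, 0.37 and 0.24. Each of these relatives stayed far below its adult partner: Tpm1 was at 2774.9 and Mybpc3 at 524 RPKM in WT TAC. The tropomyosins are alike in sequence, and the labels do not say how reads shared between them were counted. Fibroblast and macrophage sums were higher in the same WT TAC hearts. The part of cell makeup in the counterparts' changes was not tested.

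Of 9 measured thick filament and M-band genes 0 rose and 2 fell: Myh6, the adult myosin heavy chain of the mouse, by 0.68 (limma adjusted p = 0.00574), and the kinase Mylk4 by 1.47 (limma adjusted p = 0.000950). Mylk3, the cardiac kinase of Myl2, was at -0.25 (limma adjusted p = 0.0827). Of 11 thin filament genes Acta1, skeletal actin, rose by 3.24 (limma adjusted p = 0.00361), and Tmod1, which caps the actin end, and Fhod3, an actin assembly factor, fell by 0.38 and 0.35. Of 23 Z-disc genes and titin partners 7 rose and 2 fell. Over all genes 13.6% rose and 2.85% fell, and each list count of this paragraph is to be read beside those shares. No list was tested against them. Xirp2, Ankrd1, Fhl1 and Synpo2l rose by 2.21, 1.97, 1.95 and 1.79, and Ankrd1 and Fhl1 encode proteins that bind titin. Of 14 assembly and control genes Tbx20 rose by 0.61 and Smyd1, a methyltransferase needed for sarcomere assembly, fell by 0.37, while Unc45b, the myosin chaperone, was at -0.35 (limma adjusted p = 0.0705) and Hspb7 at 0.52 (limma adjusted p = 0.0842).

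**Figure D5:**
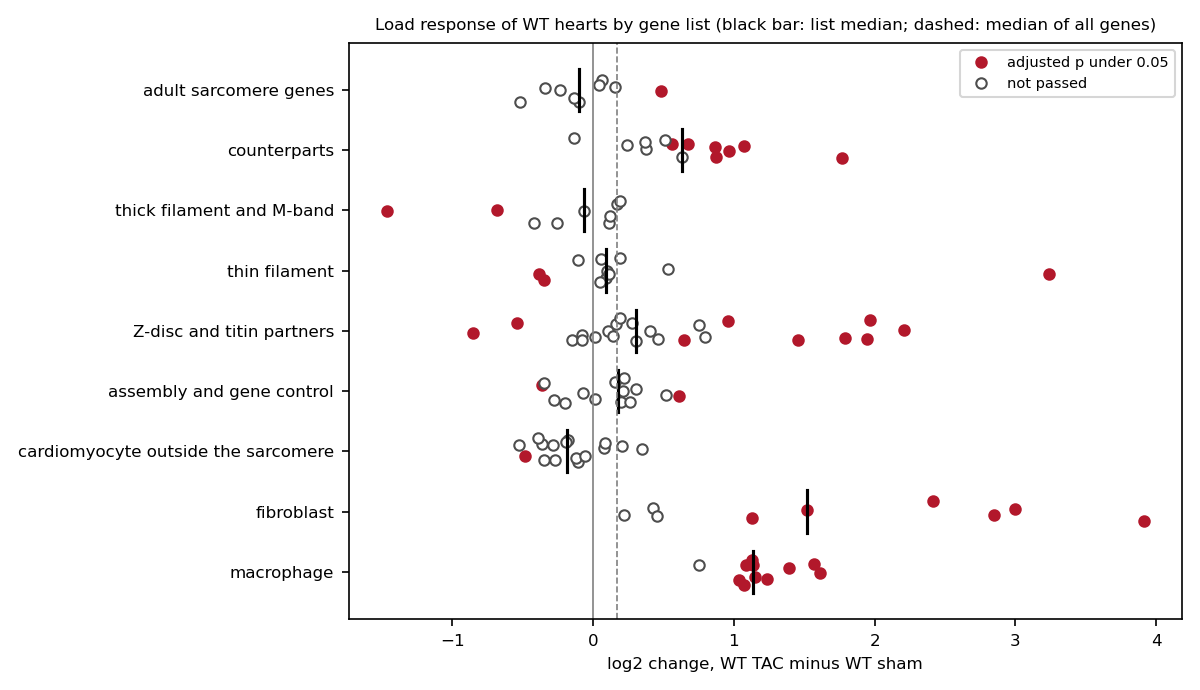
Log2 change of WT TAC against WT sham (x axis) for every measured gene of 9 lists; filled points have an adjusted p under 0.05, black bars are list medians and the dashed line is the median of all genes at 0.17. The median of the 9 adult genes lay at -0.10, that of their 13 measured counterparts at 0.63, and those of fibroblast and macrophage markers at 1.52 and 1.14.

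Between the TAC groups, 0 of 13 measured counterparts rose and 3 fell in caPI3Kalpha TAC, against 0.746% and 5.78% of all genes. Among them Tpm4 fell by 0.86 and Tpm3 by 0.76 (limma adjusted p = 0.0174 for both). Fhl1 fell by 1.62 (limma adjusted p = 0.0165), to 97.6 ± 4.74 RPKM in caPI3Kalpha TAC (SD, n = 2), against 309 ± 79.9 in WT TAC (SD, n = 3). Tcap, which caps titin at the Z-disc, rose by 1.15 (limma adjusted p = 0.0294), to 635 ± 131 RPKM in caPI3Kalpha TAC (SD, n = 2), against 284 ± 40.0 in WT TAC (SD, n = 3). In the same comparison 4 of 9 fibroblast and 6 of 11 macrophage markers fell and 0 rose, against 5.78% and 0.746% of all genes. The cardiomyocyte markers outside the sarcomere went both ways: Mb and Fabp3 rose, and Ryr2, Slc8a1 and Gja1 fell. The part of cell makeup in these values was not tested.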

How the data were processed

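Left ventricular messenger RNA of 11 mice in 4 groups was analysed; small RNA libraries of the series were not used here. Per the labels, poly-A selected libraries, 1 per mouse, were sequenced single-end on an Illumina HiSeq. The authors deposited RPKM per gene, and per the file headers the table lists genes that reach 3 RPKM in at least 1 sample. The submitters' processing notes name mm9, Bowtie, CASAVA 1.6 and Partek 6.5 without saying what each did; the treatment of strand, isoforms and reads shared between genes is not given in the sources used here. Depth is unknown. The listed RPKM summed to between 202916.4 and 212396.3 per library.

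After 261 blank lines, 2 repeated symbols and 1 error mark were removed from 9251 lines, 8987 genes were left; 0 had a mean under 1 RPKM. Columns were matched to samples by title, with 0 unmatched; for WT sham 15 the title and source name give different mouse numbers and the title was used. Log2(RPKM + 0.5) was fitted with limma 3.58.1 (R 4.3.3; eBayes with trend, 4 groups, 2-sided, Benjamini-Hochberg over 8987 genes, threshold 0.05), after tests on simulated data. Fold changes are on that log2 scale. P-values of the fit of 4 groups rest on the spread between mice of a group. In the WT groups, which hold libraries of both sets, that spread includes the difference between sets. The 9 genes and all lists were chosen with earlier results of these data known. Genes outside the 9 were named by a rule: up to 4 of a list with the smallest p in WT TAC against WT sham, up to 2 in other comparisons where they passed, counterparts with a mean of at least 5 RPKM, and the 3 genes most correlated with each member. Library sets follow the sign of the leading principal component. Alternatives were pseudocounts of 0.1 and 1, quantile normalization, centring on medians, a mean of 10 RPKM, no filter, the set term, fits within sets, fits of 2 groups and leaving out each library. Promoter sequence is from RefSeq on GRCm38.p6, another build than that of the files.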

Additional observations from a re-analysis of the deposited data

Results flagged for a closer look

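In WT sham, the only group of 4 hearts, 19 gene levels and ratios were checked for a heart that stands far from the other 3, and 7 had one. Chance gives about 1 in 20 for a single value. The ratios share genes and hearts with the levels, so the 7 are not independent and cannot be set against that rate. WT sham 6 stood apart in 6 of these. Myl2 was 3205.1 RPKM there, Myl3 2353.1 and Actn2 462.7, with gaps of 0.899, 0.872 and 0.885 of the group's range. The log2 ratios Myl2/Myl3, Ttn/Myl2 and Ttn/Actn2 were 0.446, -5.732 and -2.941 in that heart. WT sham 6 was the single WT sham heart of the first library set, and its Myl3 level was 1.54 times and its Myl2 level 0.773 times the mean of the other 3. The remaining value was Myl7/Myl2 in WT sham 15, at -9.402, with Myl7 at 5.7 RPKM in that heart.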

How the results depend on the processing

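Counts of members past the threshold moved as follows. For WT TAC against WT sham (1 in the fit of 4 groups) there were 4 with centring on medians, 4 with the set term, 0 within the first set, 5 within the second and 0 to 3 when 1 library was left out, 0 without WT TAC 17 or 19, 2 without WT sham 6 and 3 without WT TAC 1, where 22.2% and 21.0% of all genes passed, against 16.5% with every library. For caPI3Kalpha TAC against WT TAC (2) there were 1 with a pseudocount of 0.1 or a filter at 10 RPKM, and 0 with quantile normalization or with the compared groups alone. Of all 8987 genes 215 passed with quantile normalization and 79 with the compared groups alone, against 586 in the fit of 4 groups. When 1 library was left out there were 0 to 5, 5 without WT TAC 1 and 4 without WT sham 6. In these 2 fits 36.4% and 21.3% of all genes passed, against 6.52% with every library. Without WT TAC 17 and 19, 56 and 83 of all genes passed. With centring the 2 were Mybpc3 and Myl3 in place of Mybpc3 and Ttn. For caPI3Kalpha sham against WT sham (0) leaving out 1 library gave 0 to 2, 2 without WT sham 6 (20.3% of all genes). The interaction (0) and the mean response (0) had 2 each with the set term, and the mean response had 0 to 1 when 1 library was left out, 1 without WT TAC 1 (9.84% of all genes). Without WT TAC 1, WT TAC is left in the second set alone. Genotype and set then cannot be told apart in caPI3Kalpha TAC against WT TAC. The causes were not tested. For caPI3Kalpha TAC against sham the count was 0 in every alternative. Signs reversed for Tpm1 with quantile normalization, to 0.25 for WT TAC against WT sham and 0.16 for the mean response, and between the sham groups for Tnni3 (-0.16 with the set term and within the first set) and Myl3 (-0.16 within the first set); 54 other sign changes had neither value past the threshold and at least 1 within its SE. A lone library left in a group was assumed to vary like the other groups. No paired analysis was possible because no 2 compared messenger RNA groups share mouse numbers. With 2 to 4 hearts a group and unknown depth, small changes of these genes could not be resolved, and transcript lengths were not used here.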
